A study of Drosophila melanogaster with 8 samples.

Results

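The wingless Wnt gene cluster of Drosophila melanogaster holds wg, Wnt4, Wnt6 and Wnt10, 4 genes for secreted Wnt ligands that lie beside each other on chromosome arm 2L. It was followed here as a 150 kb stretch of 2L in genome build dm3, whose limits are positions around the Wnt genes and not a score threshold. It held 145 non-overlapping 1 kb windows, with rows starting from 7230500 to 7379500, out of 21758 on 2L and 126378 in the whole data set. The other 5 window positions of the interval had no row, and all 5 lay between 7344500 and 7349500.

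H3K27me3, trimethylated lysine of histone H3, was measured by chromatin immunoprecipitation and sequencing in whole adult testes of 3-day-old males kept at 23 °C. The 8 samples formed 4 groups of 2 replicates: H3K27me3 in comr homozygotes, input chromatin in comr homozygotes, H3K27me3 in can homozygotes and input chromatin in can homozygotes. The labels name the 2 mutated genes but no alleles, and give 400 testes as the starting material, so each library pools many animals. The comr product, Cookie monster, belongs to tMAC, a protein complex of the male germ line, and the can product, Cannonball, is a testis form of a general transcription factor subunit (a tTAF). Germ cells of both mutants stop as spermatocytes and make no sperm, so the 2 groups share that arrest, and no wild-type profile was analysed here.

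Wnt ligands are lipid-modified proteins that leave the cell and bind Frizzled receptors on neighbouring cells, where the canonical branch of the pathway stabilises Armadillo, the fly beta-catenin. H3K27me3 is deposited by Polycomb repressive complex PRC2 and marks silent developmental genes, often in domains much broader than a gene. The wg locus is a known Polycomb target in embryos and imaginal discs. wg patterns segments and appendages. Wnt4 acts in cell movement and ovary formation, Wnt6 in formation of the maxillary palps, and Wnt10 is the least studied of the 4.

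A name table of the Release 6 assembly held all 4 members and gave their order along 2L as Wnt4, wg, Wnt6 and Wnt10. CG13786 lay before Wnt4 and CG31909 within it. The noncoding gene lncRNA:CR45304 lay between wg and Wnt6, and no gene lay between Wnt6 and Wnt10. The antisense RNA asRNA:CR44063 lay within Wnt10. ninaC, which encodes a myosin of photoreceptor cells, followed Wnt10. Positions of that assembly were not carried over to dm3, so the order tells which genes neighbour the members, not where in the interval any of them lies. No window was assigned to a gene.

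Each mutant has 1 deposited profile in which both replicates and their inputs are combined. Its values are scores of H3K27me3 over input on a log or centred scale of unstated base, so differences of scores are given and no folds. The scores of each profile ran from -5.58 to 4.27 with a median of 0, and both hold the same set of values in another order, so a change in the total amount of the mark cannot be read from them. Errors below are standard errors over windows along 1 profile unless another error is named. They say nothing of how animals or libraries vary. A replicate check or a p-value cannot be had from 1 profile per mutant. The read depth behind the scores is unknown.

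The Wnt cluster scored above the rest of 2L in both mutants, and higher in comr than in can. Its mean score was 0.34 ± 0.04 in comr testes and 0.15 ± 0.05 in can testes (standard error, n = 145 windows). With 10 kb bins as the unit, the standard errors were 0.08 in both mutants (n = 15 bins). The rest of 2L averaged 0.00 in comr and -0.01 in can over 21613 windows. The cluster thus stood above the rest of the arm by 0.34 ± 0.04 in comr and by 0.16 ± 0.05 in can. In these whole testes, fewer cells with the mark and less of the mark per cell cannot be told apart. Neighbouring windows were also less alike in can. Their correlation in the cluster was 0.19 in can and 0.32 in comr. On the rest of 2L it was 0.19 in can and 0.29 in comr. Whether a noisier can profile has a part in its lower score was not tested.

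Single windows within the cluster varied widely. In comr they ran from -1.0 to 1.51 with a median of 0.38, and in can from -1.26 to 1.79 with a median of 0.18. The 2 distributions overlapped over most of their range. Scores above 0 were found in 108 of the 145 windows in comr (74.5%) and in 85 in can (58.6%). Over the rest of 2L the shares were 49.4% in comr and 48.9% in can. Most of the cluster therefore lay above the middle of the arm's distribution in comr, and a smaller majority did in can.

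The mean difference, comr minus can, was 0.18 ± 0.05 over the cluster, with the same standard error of 0.05 over windows and over the 15 bins. The median difference was smaller, 0.12. Over the rest of 2L the mean difference was 0.01 and the median 0.01. The score was higher in comr in 88 windows, lower in 53 and equal in 4. Thus 60.7% of the cluster's windows were higher in comr, against 50.04% on the rest of the arm. The SD of the difference over single windows was 0.59, about as wide as on the rest of 2L, where it was 0.62.

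**Figure D1:**
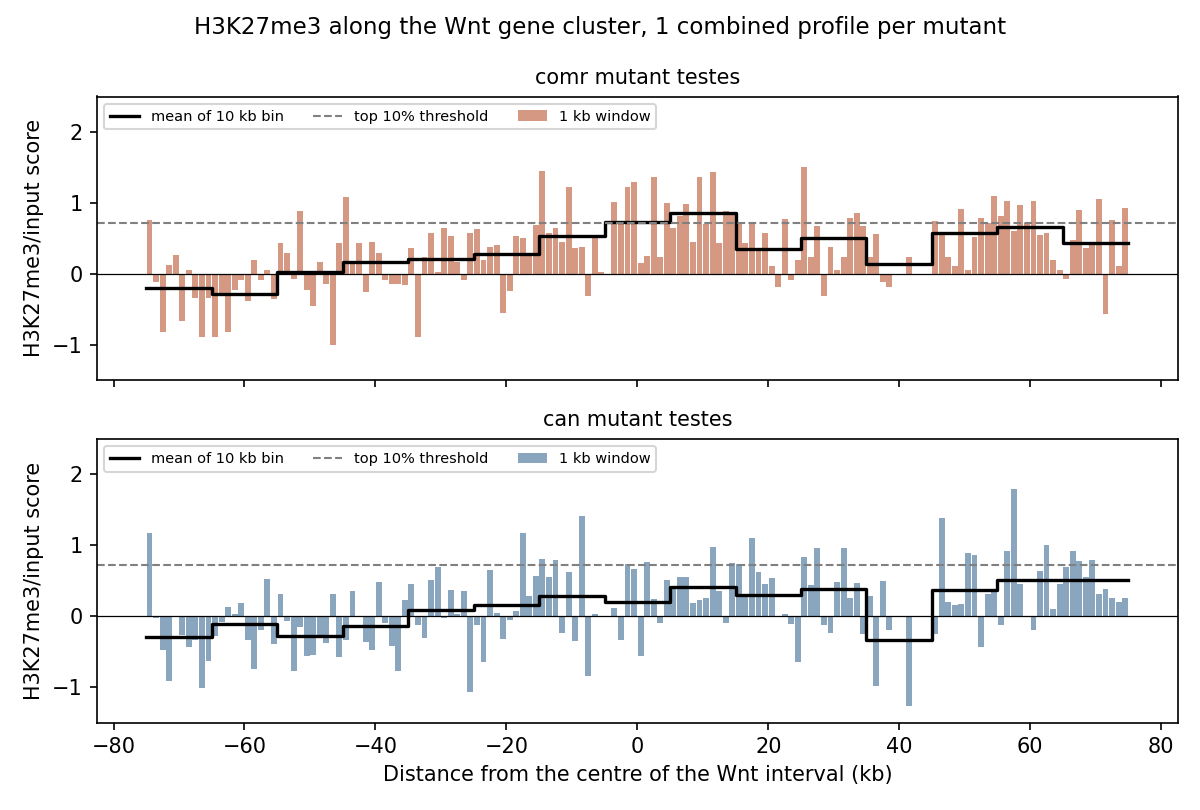
H3K27me3/input score in 1 kb windows (bars) against distance from the centre of the Wnt interval, in comr (top) and can (bottom) mutant testes. The black line is the mean of each 10 kb bin and the dashed line the top 10% threshold, 0.71 in comr and 0.72 in can. Scores are low at the left end, and the highest bins reach 0.86 in comr and 0.51 in can.

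The plot of scores along the interval shows that the mark was not spread evenly over the cluster. The first 20 kb were low in both mutants. The first bin scored -0.20 ± 0.16 in comr and -0.29 ± 0.19 in can. The next, at 7240000, scored -0.29 ± 0.11 in comr and -0.11 ± 0.11 in can. The 50 kb before the interval were low as well, with a mean of -0.34 ± 0.07 in comr and -0.20 ± 0.06 in can.

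Scores then climbed over the next 40 kb. Within the interval, the bin mean first exceeded 0 at 7250000 in comr and at 7270000 in can. At 7250000 the bin scored 0.03 ± 0.17 in comr and -0.27 ± 0.12 in can. At 7260000 it scored 0.16 ± 0.13 in comr and -0.14 ± 0.13 in can. Neither difference, 0.31 ± 0.21 and 0.30 ± 0.18, reached 2 standard errors. At 7270000 both profiles were above 0, with 0.21 ± 0.15 in comr and 0.09 ± 0.16 in can. At 7280000 they stood at 0.28 ± 0.12 in comr and 0.16 ± 0.17 in can.

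The highest bin means of comr lay in the centre of the cluster, at 7300000 and 7310000. The bin at 7290000 scored 0.53 ± 0.16 in comr and 0.28 ± 0.21 in can. The bin at 7300000 scored 0.73 ± 0.17 in comr and 0.20 ± 0.15 in can. The bin at 7310000 scored 0.86 ± 0.11 in comr and 0.42 ± 0.10 in can. That last value is the highest bin mean of the interval in comr, above 99.5% of the other 10 kb bins of 2L, and the same bin in can was above 95.4% of them.

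The bins at 7300000 and 7310000 also differed most clearly between the mutants, by 0.53 ± 0.16 and 0.44 ± 0.11. No other bin of the interval differed by more than 2 standard errors, in either direction. Among the 2194 bins of the rest of 2L, 7.02% had an excess in comr of over 2 standard errors, against 2 of 15 here. Without those 2 bins the cluster's difference was 0.14.

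Beyond the centre the scores dipped in comr, while in can the bins at 7320000 and 7330000 stayed within the range of the central bins. Both profiles had their lowest bin of this right part at 7340000. The bin at 7320000 scored 0.36 ± 0.11 in comr and 0.30 ± 0.16 in can, and the bin at 7330000 scored 0.51 ± 0.16 in comr and 0.38 ± 0.15 in can. The bin at 7340000, where rows are missing, scored 0.14 ± 0.14 in comr and -0.33 ± 0.34 in can over 5 windows. Its difference of 0.47 ± 0.44 has the widest error of the interval.

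The last 30 kb formed a second high stretch, the one where can was highest. At 7350000 the bin scored 0.57 ± 0.11 in comr and 0.37 ± 0.17 in can. At 7360000 it scored 0.65 ± 0.11 in comr and 0.51 ± 0.19 in can. At 7370000 it scored 0.44 ± 0.16 in comr and 0.51 ± 0.08 in can. The last was 1 of 2 bins with a higher score in can, and neither of those 2 differences exceeded 2 standard errors.

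Over the 15 bins, 13 were higher in comr, against 50.3% of bins on the rest of 2L. A mean above 0 was found in 13 bins in comr, against 47.5% of bins on the rest of 2L, and in 10 bins in can, against 47.2%. The bins of the 2 mutants rose and fell together, with r = 0.81 over 15 bins (Spearman's rho = 0.79). In 1 kb windows r was 0.41 over 145 windows, against 0.32 on the rest of the arm, where 10 kb bins gave 0.67. These correlations are across positions of the same 2 profiles, and positions are not independent replicates.

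**Figure D2:**
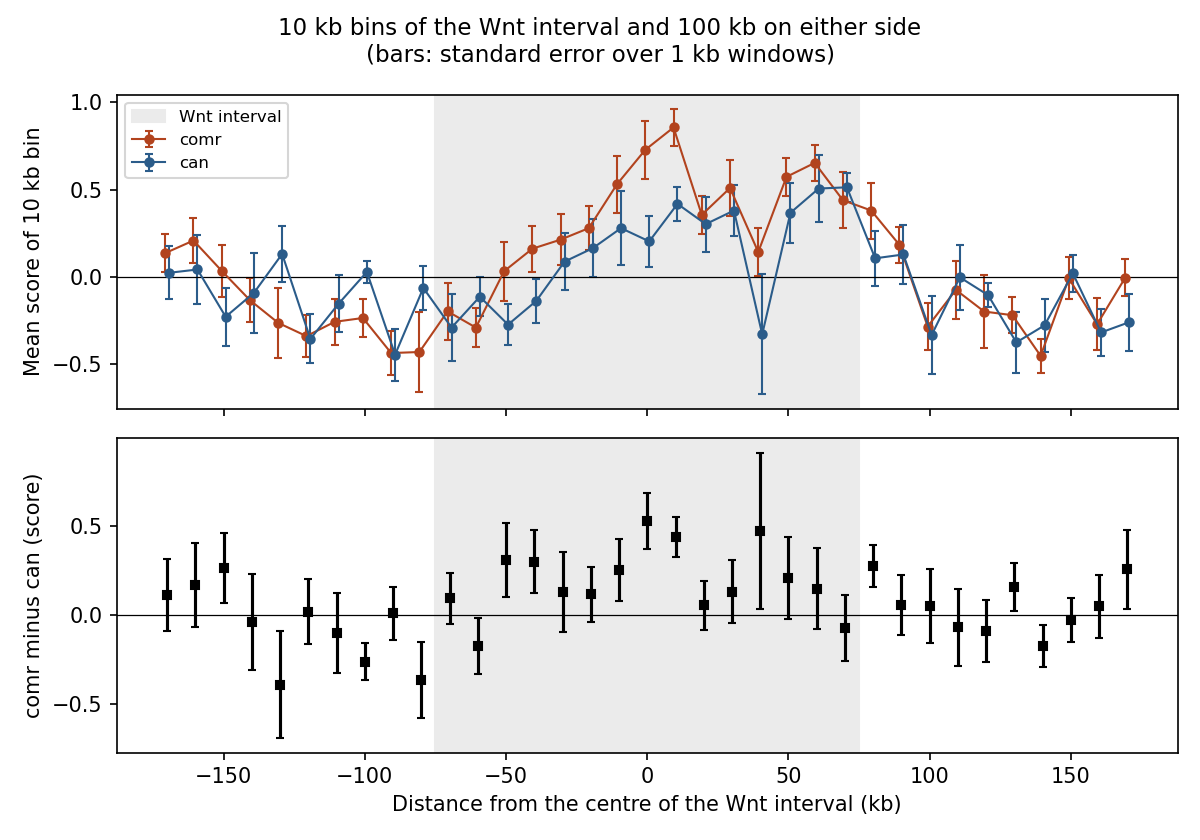
Mean score of 10 kb bins in comr and can (top) and their difference, comr minus can (bottom), against distance from the centre of the Wnt interval (grey), with 100 kb on either side. Bars are standard errors over 1 kb windows. Inside the interval 13 of 15 bins are higher in comr.

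The high scores did not extend far beyond the interval. The 150 kb before the interval averaged -0.15 ± 0.04 in comr and -0.11 ± 0.04 in can, and the 150 kb after it averaged -0.17 ± 0.04 in comr and -0.18 ± 0.04 in can. Both flanks were below the arm's mean in both mutants. Directly past the right edge, the next 10 kb still scored 0.38 ± 0.16 in comr and 0.11 ± 0.16 in can. Directly before the left edge, the 10 kb from 7220000 scored -0.43 ± 0.23 in comr and -0.06 ± 0.13 in can. That excess of comr past the right edge, 0.27 ± 0.12, exceeded 2 standard errors, while the difference before the left edge was -0.37 ± 0.22. Over the whole 150 kb flanks the differences were -0.04 ± 0.05 before the interval and 0.01 ± 0.05 after it.

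Windows in the top 10% of the 6 main sequences (X, 2L, 2R, 3L, 3R and 4) were counted as enriched, at a score of at least 0.71 in comr and 0.72 in can. The cluster held 36 enriched windows in comr, or 24.8% (95% Wilson interval 18.5 to 32.4), where 8.84% of windows on the rest of 2L were enriched. In can it held 23, or 15.9% (10.8 to 22.7), where 8.06% of the rest of 2L was enriched. These intervals cover counting error only and take each window as independent. Both shares lay above that of the arm, and the intervals of the 2 mutants overlapped.

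Both mutants called 9 windows of the cluster, 25% of those in comr and 39.1% of those in can. On the rest of 2L, 2.03% of windows were enriched in both, which was 22.9% of those in comr and 25.1% of those in can. Of the 9, the window at 7230500 stood alone at the left edge. The others lay at 7290500, 7303500, 7316500, 7319500, 7322500, 7330500, 7361500 and 7372500, so 6 of them were between 7290500 and 7330500.

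The 5 windows with the highest mean of both profiles all lay in the centre or the right part. The window at 7316500 scored 1.43 in comr and 0.98 in can, and exceeded 99.4% of the rest of 2L in comr and 97.0% in can. The window at 7330500 scored 1.51 in comr and 0.84 in can. Those at 7290500 and 7303500 scored 1.45 and 1.23 in comr, against 0.81 and 0.73 in can. All 4 were high in both profiles and higher in comr.

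The remaining one of the 5, at 7362500, had the opposite pattern, with 0.61 in comr and 1.79 in can. Its score in can was the highest of the interval, and its difference of -1.18 was among the 3 largest deficits in comr. The other 2 deficits were at 7258500, with -1.0 in comr and 0.31 in can, and at 7296500, with 0.38 in comr and 1.42 in can. Single windows could thus go against the direction of the cluster as a whole.

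The largest excesses of comr in single windows went with low scores in can, which follows in part from choosing windows by their difference. At 7279500 the scores were 0.58 in comr and -1.07 in can, at 7341500 they were 0.56 in comr and -0.98 in can, and at 7346500 they were 0.23 in comr and -1.26 in can. None of these 3 windows was enriched in either mutant. The last is the single window present among the missing ones. The 3 windows with the lowest mean of both, at 7238500, 7232500 and 7240500, all lay in the left end. They scored -0.89, -0.82 and -0.89 in comr, against -1.01, -0.47 and -0.28 in can.

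Enriched windows were joined over gaps of at most 3 kb, and a joined stretch counted as a domain from 5 kb on. In comr 4 domains touched the cluster, and they held 51 of its 145 windows (35.2%), against 7.93% of windows on the rest of 2L. In can 5 domains held 38 windows (26.2%), against 6.02% on the rest of 2L. Domains are given by the row starts of their first and last window, and their length counts the 1 kb windows from one to the other, both included. The longest in comr ran from the window at 7301500 to that at 7322500 (22 kb), and its mean was 0.80 ± 0.08 in comr and 0.38 ± 0.09 in can. Only 7 of the 196 domains of 2L in comr were longer. Since the domain was called on the comr scores, its excess of 0.43 ± 0.10 follows in part from that choice.

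The other comr domains ran from 7290500 to 7294500 (5 kb), from 7350500 to 7365500 (16 kb) and from 7372500 to 7383500 (12 kb), the last across the right edge. In can the longest ran from 7287500 to 7296500 (10 kb), with 0.65 ± 0.12 in comr and 0.57 ± 0.18 in can, and 29 of the 171 domains of 2L in can were longer. The other can domains, of 6 to 8 kb, started at 7316500, 7330500, 7351500 and 7367500. Each of the 4 comr domains overlapped a can domain, and 4 of the 5 can domains overlapped a comr domain. From left to right, the overlaps covered 100%, 31.8%, 37.5% and 25% of the comr domains, so most were partial. How often domains of the 2 mutants overlap on the rest of 2L is not given here, so the count has no background. The can domain from 7330500 overlapped none. No domain of either mutant in the interval started before 7287500.

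To set the cluster beside regions of its own size, 2L was divided into 150 kb tiles in step with the interval. In comr 7 of the 148 other tiles had a higher mean, and in can 22 did. The other tiles ran from -0.65 to 0.52 in comr, with a median of -0.02, and from -0.45 to 0.39 in can, with a median of -0.01. The nearest tiles by the mean of both were those from 1530000, with 0.30 in comr and 0.19 in can, and from 4530000, with 0.34 in comr and 0.15 in can. The cluster was thus among the higher-scoring parts of the arm but not at its top.

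Only 4 of the 148 other tiles had a larger difference in favour of comr than the cluster, 1 of them by far less than its error. The tiles with a higher mean than the cluster shared its direction, however: all 13 were higher in comr, by 0.03 to 0.34 with a median of 0.09, and 2 of them by more than the cluster. Over all 148 other tiles, 77 were higher in comr. The same held in smaller bins. Of the 225 bins of the rest of 2L whose mean of both was at least 0.33, the cluster's median bin, 155 (68.9%) were higher in comr. The median difference, comr minus can, over all 225 was 0.09. Of the 8 bins of the cluster at that level, 7 were higher in comr, and the median difference over all 8 was 0.18. A higher score in comr was therefore shared with other high-scoring regions of the arm. The other tiles reached both higher and lower in comr, from -0.65 to 0.52, against -0.45 to 0.39 in can. Their SD was 0.20 in comr and 0.15 in can, so the contrast between regions was wider in comr at both ends. The part of this wider contrast in the cluster's difference was not tested.

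**Figure D3:**
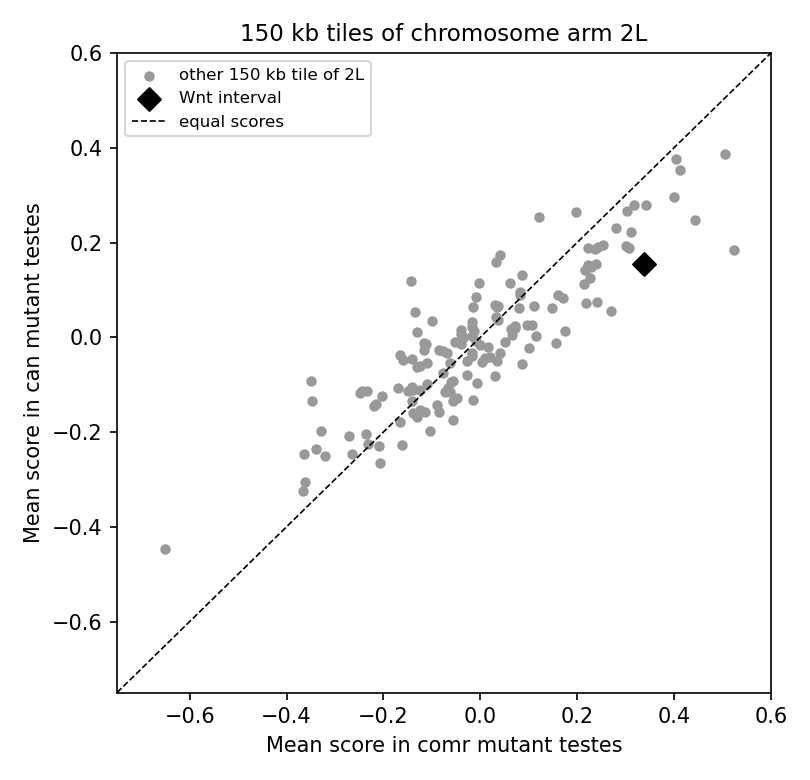
Mean score of each 150 kb tile of 2L in comr (horizontal) and can (vertical) mutant testes, with the Wnt interval as a black diamond and equal scores as a dashed line. The interval, at 0.34 in comr and 0.15 in can, lies below the line, as do all 13 tiles with a higher mean of both.

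The other genes of the pathway were not located in the profiles. The list held the ligands Wnt2, Wnt5 and wntD, the receptors fz and fz2, the co-receptor arr, and por and wls, which act in modification and release of the ligands. The name table placed all 8 outside 2L, and without dm3 positions their scores are not analysed here.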

How the data were processed

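H3K27me3 and input libraries of comr and can testes were made with a kit for small amounts of chromatin and read on a MiSeq, per the labels' protocols. For each mutant the authors deposited a single profile of scores: H3K27me3 divided by input in 1000 bp bins, then a step abbreviated QN, per the file headers. Positions are those of dm3, the build in the submitters' processing notes. For the aligner, the read filters, the depth and the combining of replicates, nothing is given in the sources used here.

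Rows lay 100 bp apart. The row starting 500 bp past each full kb stood for its 1 kb window and gives the window's name. Bins of 10 kb needed at least 5 windows and tiles of 150 kb at least 100. Means, standard errors over windows or bins, Wilson intervals and correlations were computed with scipy 1.17.1, pandas 2.3.3 and numpy 2.4.6 under Python 3.11.15. The region means and the domain caller were tested on simulated data. No test was run and no replicate left out, since each mutant has 1 profile.

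The interval and gene lists were chosen with earlier results of these data known. Genes named were the 4 members, their neighbours in the name table and the listed pathway genes. Windows named were the 5 highest and 3 lowest by the mean of both profiles and the 3 largest differences in each direction. Comparisons at matched score level were added after the values were seen. The labelled tissue could not be checked against marker genes, since the files hold no expression values. Sequences of the interval were not used here.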

Additional observations from a re-analysis of the deposited data

How the results depend on the processing

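No paired analysis was possible because both replicates of each mutant were deposited as 1 combined profile. Of 75 recomputed values, 57 moved by less than a set limit and 18 by more. The limit was the standard error over windows, the Wilson interval, 1.5 times (counts) or 0.1 (correlations). No mean, median, difference or correlation changed sign, while shares, counts and ranks cannot change sign. Leaving out bins was added after the data were seen. Widening the interval by 10 kb on either side gave a comr mean of 0.29 and an excess over the rest of 2L of 0.30. The median difference, comr minus can, was 0.12. Leaving out 1 bin in turn gave comr means of 0.30 to 0.39, comr excesses over the rest of 2L of 0.30 to 0.39 and differences, comr minus can, of 0.16 to 0.21. At the top 5% of windows, 12.4% of the cluster was enriched in comr and 6.90% in can (rest of 2L: 4.07% in comr and 3.51% in can), with 1 window in both and 1 domain in can. At the top 20% the shares were 41.4% in comr and 29.7% in can (rest of 2L: 18.5% in comr and 17.8% in can), with 28 windows in both. Without joining gaps there was 1 domain in comr and 0 in can, and rows starting at each full kb gave 3 domains in can. The correlation of the mutants was 0.75 in 5 kb bins and 0.81 in 10 kb bins. With tiles shifted by 75 kb, 2 of 147 tiles had a larger difference. Unknown depth and combined replicates limit each value.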
